A study of Mus musculus with 18 samples.

Results

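The comparison described here set 3 libraries of mouse CD8+ T cells given a guide RNA against Nur77 (genotype label Nur77-KO) against 3 libraries of cells given a scrambled guide (labelled WT), both kept overnight with 10 µM lithocholic acid (LCA). These 6 of the 18 libraries in the series were taken by their labels. In both groups naive CD8+ T cells were isolated, treated with a CRISPR ribonucleoprotein made from a purchased guide kit, and activated with antibodies to CD3 and CD28 before the LCA was added. The remaining 12 libraries hold the same pair of guides without LCA and at 50 µM LCA, again 3 libraries to a group. The labels give no mouse strain, sex or age, do not say how many mice or cultures the 3 libraries of a group came from, and give neither the guide's sequence nor the share of cells edited. P-values below therefore rest on how far these libraries varied among themselves, and that variation may be technical. Total counts were 5158296, 4988274 and 5170646 in the scrambled-guide libraries and 4507973, 4788742 and 5312152 in the Nur77-guide libraries.

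Nur77 is the protein of Nr4a1, an orphan nuclear receptor of the NR4A family whose genes are switched on within hours of T cell receptor engagement. In T cells the family is known as a brake: its members limit activation and expansion and take part in tolerance and exhaustion. LCA is a secondary bile acid that gut bacteria make from chenodeoxycholic acid, and it is known as a ligand of several nuclear and membrane receptors.

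The targeted gene was measured first. Nr4a1 (chromosome 15, 101254269 to 101274795 on GRCm38) stood at 8.31, 16.5 and 8.40 CPM, which are counts scaled to the library's size, in the scrambled-guide libraries and at 10.7, 9.92 and 9.08 CPM in the Nur77-guide libraries. The groups overlapped, with the highest and the lowest value both under the scrambled guide. The log2 fold change, Nur77 guide over scrambled guide as in every fold change below, was −0.16 ± 0.33 (SE, n = 3 and 3, edgeR adjusted p = 0.952), and it was 0.24 without scrambled-guide replicate 2. A guide that shifts the reading frame need not lower the transcript, and a count per gene does not show the edit, so the transcript level neither checks the label nor goes against it. Of the other family members, Nr4a2 was at 9.86, 9.89 and 8.98 CPM against 9.61, 8.44 and 12.5 CPM (0.093 ± 0.27, and −0.084 without Nur77-guide replicate 3). Nr4a3 was at 6.57, 6.26 and 5.08 CPM under the scrambled guide and at 11.8, 7.81 and 12.9 CPM under the Nur77 guide. Its 3 and 3 values did not overlap, but the difference of 0.86 ± 0.31 did not pass the test (edgeR adjusted p = 0.293).

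Of 11651 genes with enough counts to test, 77 (0.661%) differed between the guides at an edgeR adjusted p under 0.05, the threshold for every call here. With the Nur77 guide 48 genes (0.412%) rose and 29 (0.249%) fell, and 26 of the 77 changed at least 2-fold. The response was small in size: the median absolute log2 fold change of the called genes was 0.72, and the median standard error over all tested genes was 0.154. In all 77 the 3 values of one group lay above the 3 of the other, which 14.1% of all tested genes did (7.59% higher and 6.56% lower with the Nur77 guide). The largest rises were in Ly6c1, H2-Q10, Il24, Nlrp6 and Piwil2, and the largest falls among genes at 5 CPM or more were in Lyz2, Tspan32, Pygm, Dapl1 and Drc1. Of these, Ly6c1, H2-Q10, Il24, Lyz2 and Dapl1 kept their call in every alternative run. Nlrp6 lost its call without scrambled-guide replicate 3 or Nur77-guide replicates 2 or 3 (adjusted p up to 0.0972) and Piwil2 without Nur77-guide replicate 2 (0.0750). Tspan32 lost it on leaving out any 1 library (up to 0.174), and Drc1 without scrambled-guide replicates 1 or 2 or Nur77-guide replicates 1 or 3 (up to 0.237). The first principal component of the 6 libraries (26.1% of the variance) separated the guides. The second (21%) set Nur77-guide replicate 3 and scrambled-guide replicate 1 against Nur77-guide replicates 1 and 2.

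**Figure D1:**
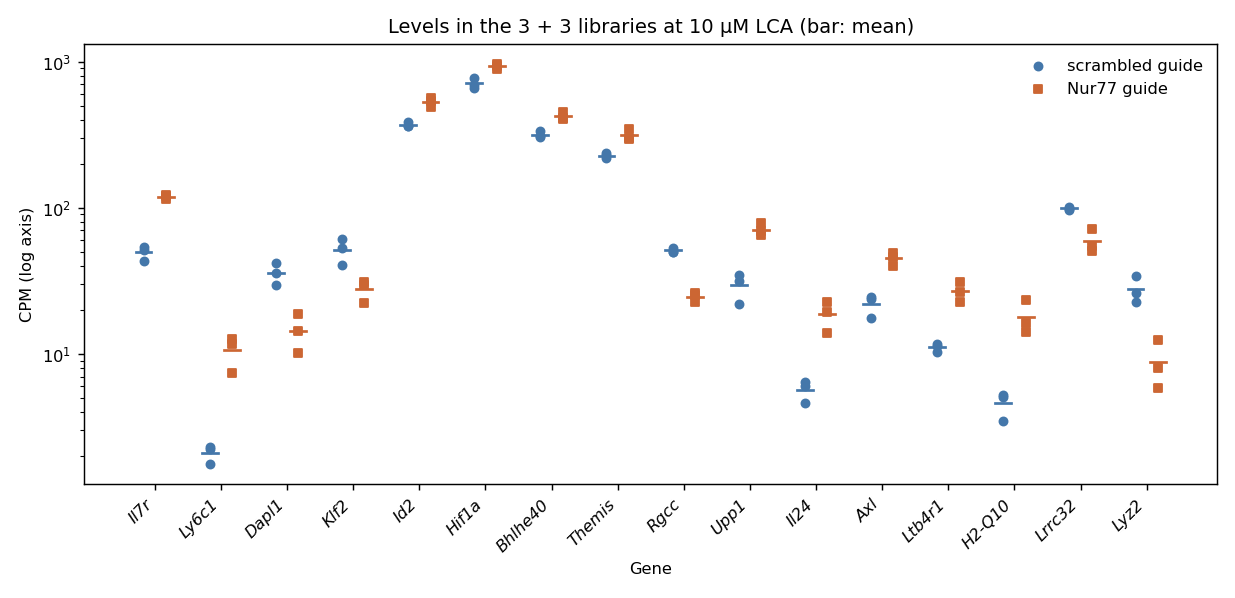
CPM (log axis) of 16 called genes in each of the 6 libraries at 10 µM LCA, circles for the scrambled guide, squares for the Nur77 guide, bars for the mean of 3. In each of the 16 genes the 3 squares lie wholly above or wholly below the 3 circles, Ly6c1 lying lowest (1.76 to 12.7 CPM) and Hif1a highest (662 to 963 CPM).

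The same 77 genes were then read in the other 12 libraries. These were not part of the contrast that called the genes, but they shared its model, its filter and its estimate of the spread, so the reading is not fully independent of the calls. Without LCA all 77 had the same sign of guide difference, against 59.5% of all tested genes. There 73 genes (0.627%) were called in all, 38 higher (0.326%) and 35 lower (0.300%), and 38 of the 77 were among them with the same direction (49.4% of the calls at 10 µM, 52.1% of those without LCA). At 50 µM LCA 75 of the 77 had the same sign, against 53.6% of all tested genes, and 47 were among the 226 genes (1.94%) called there, 165 of them higher (1.42%) and 61 lower (0.524%), (61.0% of the calls at 10 µM, 20.8% of those at 50 µM). The median guide difference of the 48 genes that rose was 0.82 at 10 µM, 0.60 without LCA and 0.73 at 50 µM. That of the 29 genes that fell was −0.61 at 10 µM, −0.54 without LCA and −0.51 at 50 µM. The values at 10 µM are those the genes were called on. In 31 of the 77 genes all 9 Nur77-guide libraries of the series lay to one side of all 9 scrambled-guide libraries, which 0.524% of all tested genes did, and in 35 the same held over the 6 and 6 libraries outside 10 µM, against 1.56% of all tested genes. Called with the same direction at all 3 doses were 28 genes, 18 of them higher with the Nur77 guide.

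**Figure D2:**
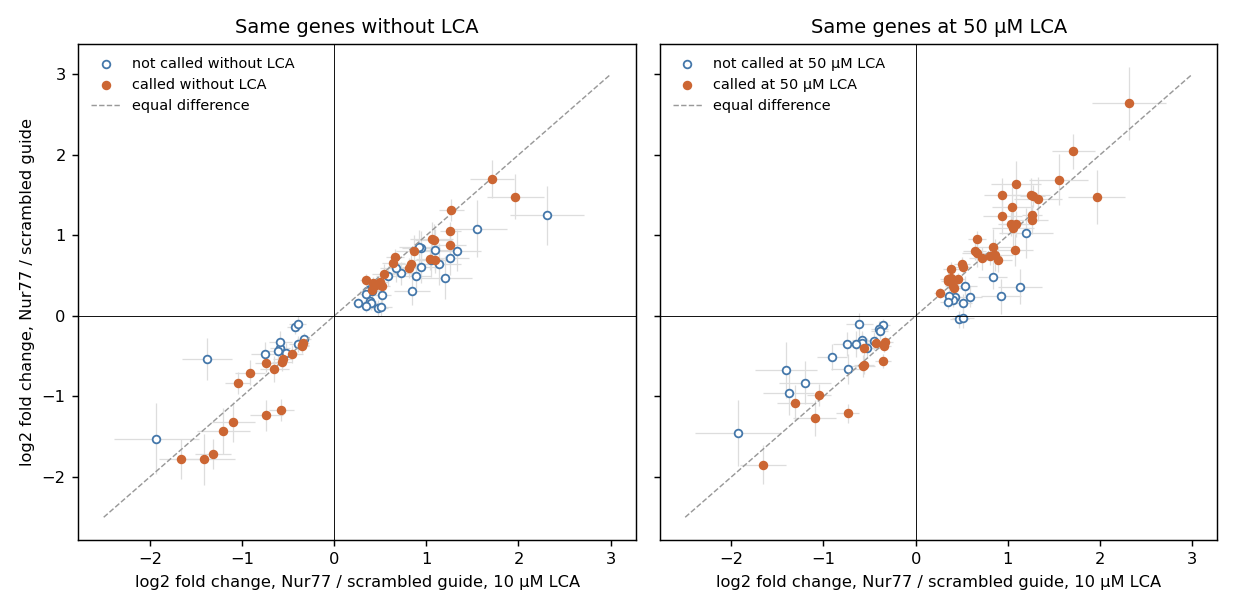
Guide differences (log2 fold change, bars for the SE) of 76 of the 77 called genes at 10 µM LCA on the x axis, against the same genes without LCA (left) and at 50 µM (right), filled where called there too; Slamf8, listed at 0 in one group, is left out. All points of the left panel lie in the lower left and upper right quadrants, and in the right panel 2 points, Hk2 and Smad3, lie just under 0.

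Genes of the naive and memory state moved in both directions. Il7r, the interleukin-7 receptor chain that naive and memory T cells use to survive, rose with the smallest p of all genes (chromosome 15, 9505788 to 9530176). It stood at 54.1, 43.0 and 51.8 CPM with the scrambled guide and at 121, 114 and 122 CPM with the Nur77 guide. The groups lay far apart, with a difference of 1.26 ± 0.11 (edgeR adjusted p = 6.32e-09). The guide difference in Il7r was 1.05 ± 0.11 without LCA and 1.26 ± 0.12 at 50 µM.

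Ly6c1, which encodes a Ly6C surface antigen carried by memory CD8+ T cells, rose from 2.32, 2.22 and 1.76 CPM to 11.6, 12.7 and 7.38 CPM (2.31 ± 0.40, edgeR adjusted p = 0.00124). Its close copy Ly6c2 was at 218, 221 and 280 CPM against 412, 338 and 359 CPM, a difference of 0.62 ± 0.35 that did not pass the test (adjusted p = 0.719). The sources used here do not say how reads shared by these 2 genes were assigned, so the split between them is uncertain. Satb1, a chromatin organiser of T cells, rose by 0.36 ± 0.08, a call that was lost without scrambled-guide replicates 2 or 3 or Nur77-guide replicates 1 or 3 (adjusted p up to 0.176).

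In the same list Dapl1, a gene of naive and memory CD8+ T cells, fell from 29.4, 35.5 and 42.0 CPM to 18.8, 14.4 and 10.2 CPM (−1.31 ± 0.19, edgeR adjusted p = 0.000132). Klf2, a transcription factor that maintains quiescence and the expression of homing receptors, fell from 53, 40.8 and 61.5 CPM to 31.3, 29.5 and 22.1 CPM (−0.91 ± 0.16, adjusted p = 0.00178). Neither gene's groups overlapped. S1pr1, the receptor for lymph node exit and a gene that Klf2 is known to activate, was looked up after its value was seen and did not pass the test (−0.48 ± 0.15, adjusted p = 0.199). Other defining genes of naive cells, also chosen after their values were seen, were Tcf7 at −0.22 ± 0.10, Ccr7 at −0.079 ± 0.072 and Lef1 at 0.41 ± 0.11, of which none passed the test. Over the 25 tested genes of the list 3 rose and 2 fell, beside 0.412% and 0.249% of all tested genes. The median was −0.079 and 10 were above 0, beside a median of −0.0043 and 48.9% above 0 over all tested genes.

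Transcription factors of effector cells were called in one direction. Of the 14 tested, 3 rose and none fell, beside 0.412% and 0.249% of all tested genes. The median was 0.18 and 11 were above 0, beside −0.0043 and 48.9% over all tested genes. Id2, an inhibitor of E proteins that sustains effector cells, rose from 363, 383 and 365 CPM to 535, 565 and 490 CPM (0.52 ± 0.09, edgeR adjusted p = 0.000647). Bhlhe40, a repressor induced by T cell receptor signals, rose from 333, 307 and 311 CPM to 405, 451 and 413 CPM (0.41 ± 0.08, adjusted p = 0.00212). Hif1a, the oxygen-regulated factor that drives glycolytic genes, rose from 692, 662 and 778 CPM to 939, 888 and 963 CPM (0.39 ± 0.07, adjusted p = 0.00178). In each of the 3 the groups did not overlap. Bhlhe40 overlaps another gene on the genome, and the sources used here do not say whether counting used the strand. Tbx21, which encodes T-bet and was looked up after its value was seen, was at 0.37 ± 0.15 and did not pass the test (adjusted p = 0.460).

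The list of glucose uptake, glycolysis and hypoxia response genes held calls in one direction too. Of 37 tested members 4 rose and none fell, beside 0.412% and 0.249% of all tested genes. The median was 0.17 and 33 were above 0, beside −0.0043 and 48.9% over all tested genes. The median of the list was 0.12 without LCA and 0.24 at 50 µM. The single direction holds for the list as drawn up. Outside it, the glycolytic enolase Eno3 (−0.75 ± 0.15) and the glycogen phosphorylase Pygm (−1.38 ± 0.27) were called lower. Hk2, a hexokinase that commits glucose to glycolysis, was at 85.8, 74.5 and 73.8 CPM with the scrambled guide and at 103, 106 and 117 CPM with the Nur77 guide (0.48 ± 0.10, edgeR adjusted p = 0.0153). Slc2a3, which encodes the glucose transporter GLUT3, rose from 124, 128 and 119 CPM to 163, 167 and 160 CPM (0.40 ± 0.08, adjusted p = 0.00883). Replicates of both genes lay close together and the guides apart. P4ha2, a collagen prolyl hydroxylase induced by hypoxia, rose from 9.47, 10.5 and 13.5 CPM to 28.8, 23.2 and 18 CPM (1.06 ± 0.23, adjusted p = 0.0152). Hk1, the constitutive hexokinase, rose from 265, 276 and 260 CPM to 312, 307 and 398 CPM (0.35 ± 0.08, adjusted p = 0.0284), and the difference was 0.22 without Nur77-guide replicate 3.

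These 4 calls depended on single libraries. Slc2a3 lost its call without scrambled-guide replicate 3 (adjusted p = 0.0761), and Hk2 without scrambled-guide replicates 2 or 3 or Nur77-guide replicate 3 (up to 0.123). P4ha2 lost its call without scrambled-guide replicates 1 or 2 or Nur77-guide replicate 1 (up to 0.139), and Hk1 without any 1 scrambled-guide replicate or without Nur77-guide replicate 3 (up to 0.380). Among members that did not pass the test and were chosen after their values were seen, Slc2a1, the transporter GLUT1, was at 0.22 ± 0.07 (adjusted p = 0.133) and Egln3, an oxygen-sensing prolyl hydroxylase, at 0.36 ± 0.10 (adjusted p = 0.0911).

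Slc2a3, a called member of the glycolysis and hypoxia list, had no window among the promoter sequences used. Whether the rise in Hif1a bears on this list was not tested. For the other called members, Hk2, P4ha2 and Hk1, the 250 bases before the RefSeq start sites (GRCm38.p6) are shown. They were searched on both strands for ACGTG and GCGTG, the 2 five-letter forms of the hypoxia response element, a search chosen after the values were seen. Matches on either strand are in capitals, and each sequence reads 5′ to 3′ along its gene.
Hk2 (chr6:82774455-82774704, minus strand): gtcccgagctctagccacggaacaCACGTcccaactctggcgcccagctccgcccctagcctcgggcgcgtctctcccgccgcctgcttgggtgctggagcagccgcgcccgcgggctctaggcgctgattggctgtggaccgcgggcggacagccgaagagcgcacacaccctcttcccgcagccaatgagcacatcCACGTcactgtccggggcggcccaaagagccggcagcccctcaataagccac
P4ha2 (chr11:54100674-54100923, plus strand): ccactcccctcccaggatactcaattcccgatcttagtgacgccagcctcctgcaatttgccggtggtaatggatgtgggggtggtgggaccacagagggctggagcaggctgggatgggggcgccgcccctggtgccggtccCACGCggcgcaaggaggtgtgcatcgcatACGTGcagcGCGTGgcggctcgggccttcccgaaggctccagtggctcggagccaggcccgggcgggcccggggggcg
Hk1 (chr10:62340422-62340671, minus strand): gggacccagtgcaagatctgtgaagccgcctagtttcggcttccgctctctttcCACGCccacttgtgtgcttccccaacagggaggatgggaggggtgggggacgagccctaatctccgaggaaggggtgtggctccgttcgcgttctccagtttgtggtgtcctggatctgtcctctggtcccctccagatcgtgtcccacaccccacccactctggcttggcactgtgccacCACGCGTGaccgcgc
The Hk2 window holds 2 matches, the P4ha2 window 3 and the Hk1 window 3, of which 2 overlap. Hk1 has a further start site whose window has none. Letters this short are common: 56.4% of the windows of all tested genes and 78.4% of the 51 windows of the glycolysis and hypoxia list hold at least 1, so a match is a description of the sequence and not a site shown to be bound.

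Subunits of the mitochondrial respiratory chain lay mostly below 0. Of 41 tested subunits only Ndufa4 fell and none rose, beside 0.249% and 0.412% of all tested genes. The median was −0.11, with 37 below 0 and 4 above, beside a median of −0.0043 and 48.9% above 0 over all tested genes. The median was −0.018 without LCA and 0.049 at 50 µM. Ndufa4, a subunit of cytochrome c oxidase, stood at 113, 123 and 120 CPM with the scrambled guide and at 78.7, 92.2 and 67.2 CPM with the Nur77 guide (−0.58 ± 0.11, edgeR adjusted p = 0.00209), and its call held in every alternative run. Cox7a2, another subunit of that enzyme, was at 201, 227 and 222 CPM against 186, 197 and 157 CPM and did not pass the test (−0.27 ± 0.08, adjusted p = 0.171).

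**Figure D3:**
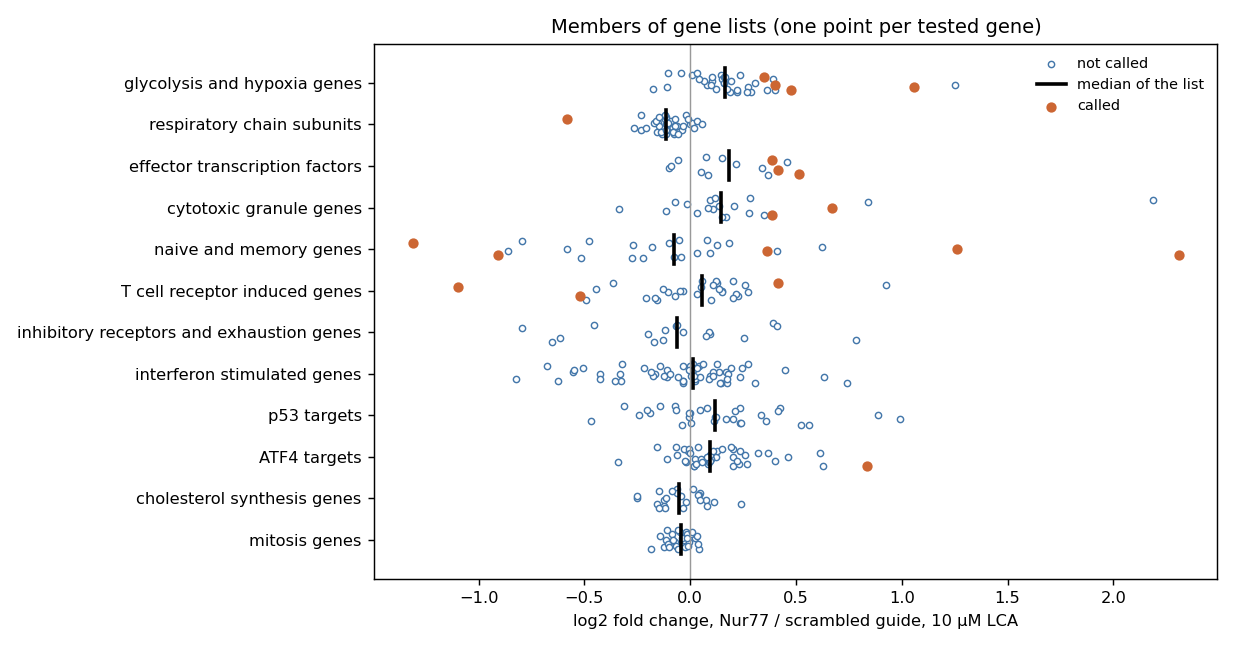
Log2 fold changes at 10 µM LCA of the tested members of 12 gene lists, filled where called, with a black bar at each list's median. The glycolysis and hypoxia list lies mostly to the right of 0 (33 of 37 genes), the respiratory chain list mostly to the left (37 of 41), and 5 lists hold no called gene.

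Upp1, which splits uridine into uracil and ribose phosphate, rose from 22, 31.7 and 34.6 CPM to 65.5, 78.1 and 69.2 CPM (1.27 ± 0.13, edgeR adjusted p = 2.85e-07). It was second only to Il7r by p, and its guide difference was 1.31 ± 0.13 without LCA and 1.49 ± 0.14 at 50 µM. Pygm, the muscle form of glycogen phosphorylase, fell from 16.2, 10.5 and 15 CPM to 4.69, 4.43 and 6.81 CPM (−1.38 ± 0.27). Eno3, the muscle form of enolase, fell from 35, 51.7 and 38.9 CPM to 23.7, 27 and 24 CPM (−0.75 ± 0.15). Neither gene is on the glycolysis and hypoxia list. Hsd11b1, which regenerates active glucocorticoid, fell by 0.73 ± 0.18 on the log2 scale. Pygm lost its call without scrambled-guide replicate 1 or Nur77-guide replicates 1 or 2 (adjusted p up to 0.0551), Eno3 without scrambled-guide replicate 2 or Nur77-guide replicate 1 (up to 0.141), and Hsd11b1 without scrambled-guide replicates 1 or 2 or Nur77-guide replicates 1 or 3 (up to 0.382).

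Il24, a cytokine of the interleukin-10 family, rose from 5.99, 4.64 and 6.44 CPM to 13.9, 19.4 and 22.7 CPM (1.71 ± 0.24, edgeR adjusted p = 5.69e-05). Axl, a TAM receptor tyrosine kinase, rose from 24.6, 17.6 and 23.6 CPM to 45.8, 40.1 and 49.2 CPM (1.04 ± 0.14, adjusted p = 5.86e-05). Ltb4r1, the high-affinity leukotriene B4 receptor through which effector T cells are drawn to inflamed tissue, rose from 11.4, 10.3 and 11.7 CPM to 31.1, 26.6 and 22.7 CPM (1.26 ± 0.18, adjusted p = 5.86e-05). All 3 genes were called at every dose and in every alternative run. Pros1 encodes protein S, a ligand of the TAM receptors Tyro3 and Mertk. It fell from 44.5, 44.6 and 42.4 CPM to 28.6, 27 and 30.5 CPM (−0.61 ± 0.15, edgeR adjusted p = 0.0441), a call lost on leaving out any 1 of the 6 libraries (up to 0.177).

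H2-Q10, a secreted class I molecule of the Q region, rose from 3.48, 5.25 and 5.08 CPM to 14.1, 16.2 and 23.5 CPM (1.96 ± 0.31, edgeR adjusted p = 0.000281). It has close relatives in the H2 complex, between which reads can be split. The 21 genes of class I antigen presentation held no call, beside 0.661% of all tested genes, and had a median of −0.029. Tgm2, a transglutaminase, rose from 77.7, 101 and 118 CPM to 237, 247 and 221 CPM (1.25 ± 0.21, adjusted p = 0.0128). Its call was lost without scrambled-guide replicates 1 or 2 or Nur77-guide replicate 1 (up to 0.0580), and it overlaps Rprd1b on the genome. Lrrc32, which encodes GARP, the surface anchor of latent TGF-β, fell from 96.9, 101 and 98.6 CPM to 54.8, 50.4 and 72.1 CPM (−0.74 ± 0.12, adjusted p = 0.000528).

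Among cytokine receptors and STAT5 targets, Il12rb2, the signalling chain of the interleukin-12 receptor, rose by 0.35 ± 0.07 and Ifnar2, a chain of the type I interferon receptor, fell by 0.33 ± 0.08 on the log2 scale. The other 26 of 28 tested members were not called, where 0.661% of all tested genes were called, and the median was 0.060. Il12rb2 was at 468, 432 and 458 CPM against 575, 543 and 612 CPM and was called at all 3 doses, but at 10 µM its call was lost without scrambled-guide replicate 2 or Nur77-guide replicates 1 or 3 (adjusted p up to 0.113). Ifnar2, at 163, 158 and 158 CPM against 117, 132 and 132 CPM, lost its call on leaving out any 1 library, with no filter on low counts and with only the groups compared in the fit (up to 0.227). The 59 interferon stimulated genes held no call and had a median of 0.011.

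Genes that act on T cell receptor signalling moved in both directions. Themis, which tunes signalling from the receptor and was chosen after its value was seen, rose from 218, 237 and 228 CPM to 299, 294 and 344 CPM (0.46 ± 0.07, edgeR adjusted p = 0.000281). Spry1, an inhibitor of the Ras and MAP kinase pathway, fell from 12.8, 17.8 and 18.4 CPM to 7.15, 9.29 and 6.43 CPM (−1.10 ± 0.24, adjusted p = 0.0128). Cd5, an inhibitory co-receptor whose level follows receptor signal strength, fell from 68.6, 73.7 and 84.4 CPM to 50.5, 55.9 and 51.3 CPM (−0.52 ± 0.12, adjusted p = 0.0259). Its relative Cd6 fell from 162, 170 and 174 CPM to 135, 132 and 130 CPM (−0.35 ± 0.08, adjusted p = 0.0290). Groups of all 4 genes were apart. Spry1 and Cd5 each lost the call without scrambled-guide replicates 2 or 3 or Nur77-guide replicates 1 or 3 (up to 0.120 and 0.242), and Cd6 on leaving out any 1 library (up to 0.161).

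The list of 31 tested genes induced by the T cell receptor held calls both ways. Bhlhe40 rose and Spry1 and Cd5 fell, beside 0.412% higher and 0.249% lower over all tested genes. The median of the list was 0.056 with 18 above 0. Of 14 tested members of the CD8 co-receptor and T cell receptor complex list Cd6 alone was called, beside 0.661% of all tested genes. Cd8a was at 576, 631 and 601 CPM with the scrambled guide and 516, 499 and 526 CPM with the Nur77 guide, groups that did not overlap but did not pass the test (−0.23 ± 0.06, adjusted p = 0.0627). Rgcc, a cell cycle regulator, was the called gene with the smallest p among those that fell. It went from 53.4, 50.1 and 49.8 CPM to 26.1, 22.8 and 25.2 CPM (−1.05 ± 0.13, edgeR adjusted p = 1.88e-05) and was called at every dose.

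Among 20 tested genes of cytotoxic granules 2 rose and none fell, beside 0.412% and 0.249% of all tested genes. The median was 0.14 and 16 were above 0, beside −0.0043 and 48.9% over all tested genes. Both are serpins that protect the killer cell from its own granzymes or related proteases: Serpinb9 rose from 135, 156 and 137 CPM to 184, 191 and 184 CPM (0.39 ± 0.08, edgeR adjusted p = 0.0153) and Serpinb6b from 25.5, 25 and 28.1 CPM to 44.0, 37.6 and 43.5 CPM (0.67 ± 0.17, adjusted p = 0.0493). Serpinb9 lost its call without scrambled-guide replicates 1 or 3 or Nur77-guide replicates 1 or 2 (up to 0.116), Serpinb6b on leaving out any 1 library and with the replicate block (up to 0.222), and reads of these relatives can be split. Gzmb, the main granzyme, looked up after its value was seen, differed by 0.11 ± 0.18 and was not called (adjusted p = 0.930). Klrc1, which encodes the inhibitory receptor NKG2A and was chosen after its value was seen, fell from 58.0, 59.5 and 53.3 CPM to 40.4, 35.9 and 38.6 CPM (−0.57 ± 0.13, adjusted p = 0.0293). That call was lost on leaving out any 1 library (up to 0.158), although Klrc1 was called at all 3 doses.

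None of 18 inhibitory receptors and exhaustion genes was called, beside 0.661% of all tested genes, and their median was −0.063. Pdcd1, which encodes PD-1 and was chosen after its value was seen, was at 72.9, 65.4 and 49.4 CPM against 38.7, 45 and 35.9 CPM, groups that did not overlap with a difference of −0.65 ± 0.19 that did not pass the test (edgeR adjusted p = 0.128). There was likewise no call among 16 effector cytokines and chemokines (median −0.11), 14 costimulatory receptors (0.19), 32 p53 targets (0.11), 30 DNA repair genes (−0.041), 24 cholesterol synthesis genes (−0.052), 39 DNA replication genes (−0.025), 30 mitosis genes (−0.044) or 58 cytosolic ribosomal proteins (−0.039). The 18 tested bile acid and retinoid receptors and transporters had a median of 0.23 and no call. In the list of ATF4 targets, the amino acid and integrated stress response, 1 of 45 rose, beside 0.412% of all tested genes. This was Stc2, a secreted stanniocalcin, which went from 18.6, 20.8 and 20.5 CPM to 42.5, 32.1 and 32.5 CPM (0.84 ± 0.16, edgeR adjusted p = 0.00295). Its call was lost without Nur77-guide replicate 1 (0.0568).

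Most marker genes of myeloid cells had lower levels with the Nur77 guide. Lyz2, the lysozyme of macrophages and granulocytes, fell from 22.8, 33.9 and 26.2 CPM to 8.04, 12.5 and 5.87 CPM (−1.66 ± 0.25, edgeR adjusted p = 0.000194), and it fell at all 3 doses. Of the 17 myeloid markers 14 had a lower mean with the Nur77 guide, and none was at 0 in all 6 libraries. Their summed level was 135 to 162 CPM with the scrambled guide and 107 to 115 CPM with the Nur77 guide, without overlap. Of the 13 tested, 12 were below 0 and 1 above, beside 48.9% above 0 over all tested genes. Only Lyz2 was called, beside 0.661% of all tested genes. Fcer1g, an Fc receptor chain, was at −1.31 ± 0.33 (edgeR adjusted p = 0.0554). Csf1r, the receptor of macrophage growth factor, had 16, 14 and 10 counts against 2, 4 and 2 counts (−2.20 ± 0.78, edgeR adjusted p = 0.290). The markers with a higher mean were H2-Ab1 (0.33, edgeR adjusted p = 0.611), Camp and Ltf. Cd74, the marker at the highest level, was at −0.21 (edgeR adjusted p = 0.911).

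Among called genes that fell, Ctss and Slamf8, chosen after their values were seen, also have a known place in macrophages and other antigen-presenting cells. Called genes that rose include some known from macrophages too, among them Axl (1.04 ± 0.14) and Tgm2 (1.25 ± 0.21). Ctss, a lysosomal protease, fell from 88.5, 108 and 94.7 CPM to 64.1, 66.1 and 67.7 CPM (−0.56 ± 0.10, edgeR adjusted p = 0.00209). Slamf8 had 5, 5 and 18 counts in the scrambled-guide libraries, 28 together, and 0 in the Nur77-guide libraries. Taking 3 counts over the group as the floor makes it 8.88-fold lower, a value that treats the 28 counts as exact. Its call was lost without scrambled-guide replicate 3 or any 1 Nur77-guide replicate (up to 0.164). Lgals3, a galectin abundant in macrophages and also made by activated T cells, fell by 0.58 ± 0.13 on the log2 scale and lost its call without scrambled-guide replicates 1 or 2 or Nur77-guide replicates 1 or 3 (up to 0.185). The part of the myeloid markers in these falls was not tested. In bulk RNA fewer cells of a type and less RNA per cell cannot be told apart.

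**Figure D4:**
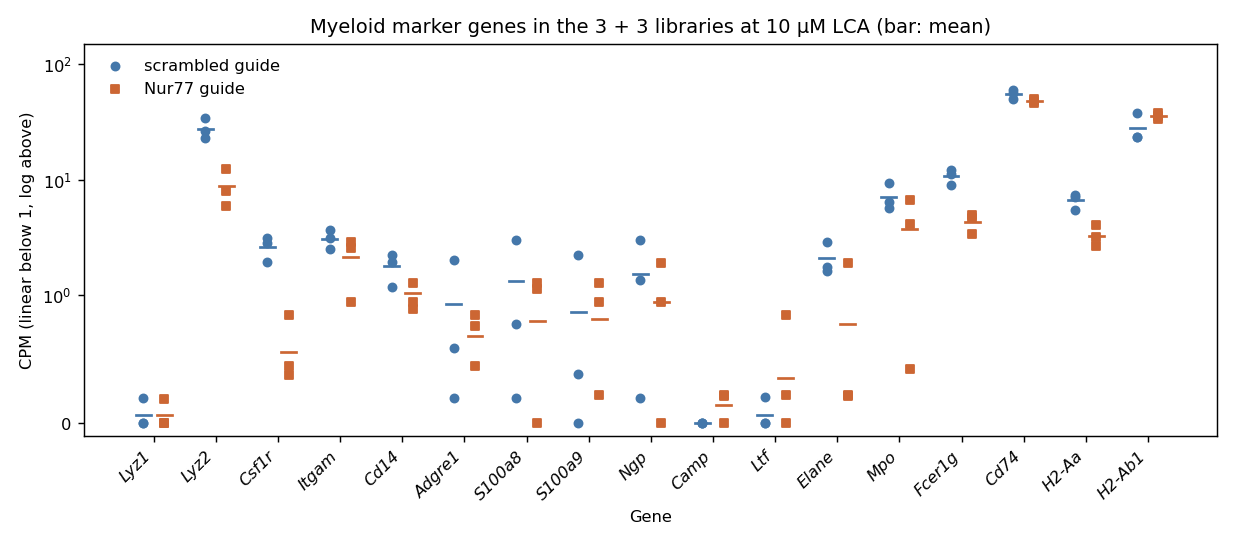
CPM of the 17 myeloid markers in each of the 6 libraries (axis linear below 1 and logarithmic above), circles for the scrambled guide, squares for the Nur77 guide, bars for the mean of 3. The groups are apart, and lower with the Nur77 guide, for Lyz2, Fcer1g, Csf1r and H2-Aa, and overlap for the other 13. Of all tested genes 14.1% are apart, 6.56% of them lower with the Nur77 guide as a share of all tested.

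Markers of the labelled cell type were present in every library. The summed level of 5 CD8 T cell markers was 3444 to 3738 CPM with the scrambled guide and 3335 to 3594 CPM with the Nur77 guide. Markers of CD4 T cells summed to 203 to 208 CPM against 210 to 235 CPM. Most of that sum was Ctla4, also on the inhibitory receptor list, at 189, 186 and 193 CPM against 218, 196 and 193 CPM. Cd4 itself had 0, 0 and 0 counts against 4, 2 and 0 counts. Markers of NK and gamma delta T cells summed to 127 to 147 CPM against 120 to 134 CPM. Most of this was Eomes, at 134, 143 and 119 CPM against 124, 129 and 117 CPM. Red cell and platelet markers were highest in Nur77-guide replicate 2, at 24.1 CPM against 4.69 to 14.3 CPM in the other 5 libraries.

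Whether the guide difference itself depended on the dose was tested as an interaction. Against the guide difference without LCA no gene was called at 10 µM (edgeR smallest adjusted p = 0.99965, 382 genes at an unadjusted p under 0.05, DESeq2 0). Against that at 50 µM edgeR called none (819 genes at an unadjusted p under 0.05) and DESeq2 called Cox7a2 (−0.59, adjusted p = 0.0272), for which edgeR gave −0.59 ± 0.12 (adjusted p = 0.204). Of the 77 genes, 20 were called at 10 µM and at neither other dose, yet all 20 had the same sign without LCA and 18 had it at 50 µM. Hk2 and Smad3, the 2 exceptions, were looked at after this was seen. The guide difference in Hk2 was 0.48 ± 0.10 at 10 µM, 0.098 ± 0.10 without LCA and −0.044 ± 0.10 at 50 µM, and neither interaction was called. That in Smad3, a mediator of TGF-β signals, was 0.51 ± 0.12 at 10 µM (a call lost on leaving out any 1 library, adjusted p up to 0.212), 0.12 without LCA and −0.031 at 50 µM, again with no interaction called. The median standard error of an interaction over the 77 genes was 0.191 without LCA and 0.193 at 50 µM, which sets the size that could be seen.

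Position relative to the targeted gene was also read. Within 1 Mb of Nr4a1, on chromosome 15 of GRCm38, 26 genes were tested, Nr4a1 among them, none was called and their median was −0.025. On chromosome 15 before Nr4a1, 423 genes were tested, 4 were called higher and 1 lower, and the median was 0.012. Beyond it 32 were tested, none was called and the median was 0.052. Over all tested genes 0.412% were called higher and 0.249% lower, and the median was −0.0043. At these shares the lack of a call in 26 or 32 genes says little. All 76 called genes that could be placed were protein coding, as were 95.9% of the tested genes. Amica1, the remaining called gene, could not be placed under that symbol.

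The response element that NR4A receptors bind as monomers is spelled AAAGGTCA. It was searched on both strands from 250 bases before to 50 after the RefSeq start sites. None of the 55 windows of 37 of the 48 genes called higher, and none of the 26 windows of 23 of the 29 genes called lower, held these letters, beside 1.01% of the windows of all tested genes. This says only that the letters are not in these windows.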

How the data were processed

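The deposited table holds raw counts per gene symbol, whole numbers, for 18 libraries; per the submitters' processing notes STAR, HOMER and DESeq2 and the builds GRCm38 and mm10 were used, with no versions or roles given. The sources used here do not give the strand and multi-mapping settings. Il12rb2, Hk1, Hsd11b1 and Selp, like Bhlhe40 and Tgm2, overlap a tested gene on the other strand. The counts cover 24537 symbols, of which 2231 had none in any library. Libraries of a group differed by more than counting error (scaled squared differences 2.52 to 5.22).

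A single model of all 18 libraries, with the 6 groups as its terms, was fitted in edgeR 4.0.16 (R 4.3.3): filterByExpr, TMM, robust quasi-likelihood F tests, Benjamini-Hochberg adjustment over 11651 genes. DESeq2 1.42.0 was an alternative. The SE was taken as |log2 fold change| / √F. CPM use TMM-scaled library sizes. Same-numbered libraries did not deviate together (r −0.103 to 0.088). Genes were placed by symbol with GENCODE M21 (11380 of those tested). On simulated counts at this design, 33 of 50 genes changed 1.5-fold and 44 of 50 changed 2-fold were called.

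The rule for naming genes took the NR4A genes first. It then took the 15 highest and 15 lowest called genes by log2 fold change at a mean CPM of at least 5. Added were up to 3 called members of each list in each direction. So were the 5 genes with the smallest p in each interaction and up to 10 called at all 3 doses by p. Not all of them are described in the text. Of the interaction genes only Itga2b and Cox7a2 are given. Maged2 (1.09 ± 0.17) and Ttc39c (0.66 ± 0.10), called higher at all 3 doses, are left out. Most genes outside the rule are said to be chosen after their values. Ly6c2, Hk1, Cd8a, Fcer1g, Csf1r, Ctla2a and Ctsh lie outside it too, without a word on this where they appear. The comparison, lists and rule were chosen with earlier results of these data known. Replicates left out, other scaling, filters and fits were tried.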

Additional observations from a re-analysis of the deposited data

How the results depend on the processing

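The 77 calls became 124 with DESeq2 (75 shared), 142 with no filter on low counts, 123 with each library's background of unexpressed receptor genes as a covariate, 128 with only the 2 groups compared in the fit, and 43 to 62 on leaving out 1 of the 6 libraries. With the replicate number as a block there were 80 calls, 74 of them shared, and Rasgrp2, Drc1 and Serpinb6b lost theirs. The labels do not say whether these numbers pair the samples. With DESeq2's size factors 77 genes were called and with a mean of at least 5 CPM 78. Of the 77, 27 kept their call in each of up to 13 settings and none changed direction. The interaction with the dose went from 0 calls to 3 with no filter and 1 with only the groups compared against no LCA (0 to 0 on leaving out a library), and to 1 with DESeq2 and 2 with no filter against 50 µM (0 to 5 on leaving out a library). Nr4a1 ranged from −0.33 to 0.24 and turned to 0.24 without scrambled-guide replicate 2, Nr4a2 ranged from −0.084 to 0.21 and Ccr7 from −0.13 to 0.0035, both reversing without Nur77-guide replicate 3; the cause was not tested. The share of the called genes with the same sign was 97.9 to 100% without LCA and 91.8 to 100% at 50 µM on leaving out a library. The share of members above 0 was read again in these settings for some lists only, the cytotoxic granule genes not among them. It moved clearly on leaving out 1 library for 2 of the lists read, and for the ribosomal proteins more than 1 choice of library did so. Mitosis genes went from 20% to 40% without scrambled-guide replicate 3. Ribosomal proteins went from 27.6% to 46.6% and 43.1% without scrambled-guide replicates 2 and 3, 15.5% without Nur77-guide replicate 2 and 65.5% without Nur77-guide replicate 3. At this depth and 3 libraries a group, 1.5-fold changes were only partly within reach.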

Other observations

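Several called genes outside the lists, chosen after their values were seen, have known places in cell movement and adhesion. Adam8, a membrane metalloprotease, rose from 87.2, 92.6 and 83.4 CPM to 152, 142 and 166 CPM (0.81 ± 0.12, edgeR adjusted p = 0.000223). Gsn, an actin-severing protein, rose from 50.3, 55.7 and 50.6 CPM to 106, 93.5 and 91.4 CPM (0.89 ± 0.15, adjusted p = 0.00209), and both kept their call in every alternative run. Pak6, a serine/threonine kinase, rose by 1.08 ± 0.20. Selp, which encodes P-selectin, rose from 10.1, 9.69 and 9.57 CPM to 20.6, 17.7 and 18.2 CPM (0.94 ± 0.21, adjusted p = 0.0163); it lost its call without any 1 scrambled-guide replicate or without Nur77-guide replicate 1 (up to 0.0973).

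Ctla2a, an inhibitor of cathepsin-like proteases, rose from 259, 278 and 287 CPM to 409, 412 and 349 CPM (0.50 ± 0.08, adjusted p = 0.000647), while the proteases Ctss and Ctsh fell. Ctsh was at 3.87, 5.85 and 8.59 CPM against 1.34, 1.90 and 1.51 CPM (−1.93 ± 0.46), and lost its call without scrambled-guide replicates 2 or 3 or any 1 Nur77-guide replicate (up to 0.282). Ctla2a has a near copy, Ctla2b, with which reads can be split.

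The gene with the smallest p for a guide difference that changed from no LCA to 10 µM was Itga2b, an integrin of platelets and megakaryocytes (3.63 ± 0.84, edgeR adjusted p = 0.99965). At 10 µM it stood at 4.06, 4.24 and 0.586 CPM with the scrambled guide and 1.12, 6.96 and 1.51 CPM with the Nur77 guide, so the groups overlapped, and its highest value was in the library with the highest red cell and platelet markers.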
